A study of Mus musculus with 20 samples.

Results

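The regulators of SREBP and ChREBP were followed across kidney and liver of mice labelled Lxrα-/- and of wild-type mice. They are 7 genes, Srebf1, Srebf2, Scap, Insig1, Insig2, Mlxipl and Mlx, taken by gene symbol from the 54532 genes of the count table and read in all 20 libraries. The samples were bulk RNA from snap-frozen whole tissue of male mice on a C57BL/6 background, 5 per genotype, with kidney and liver libraries of each genotype carrying the same title numbers. The 4 groups were therefore wild-type liver, labelled Lxrα-/- liver, wild-type kidney and labelled Lxrα-/- kidney, with 5 libraries in each. Wild-type titles are numbered 1, 3, 4, 5 and 6 and labelled Lxrα-/- titles 1 to 5. Lxrα is the nuclear receptor encoded by Nr1h3. The exons removed by the allele, the age, the diet, the feeding state, the hour of sampling and whether the genotypes were littermates are not given in the sources used here.

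Sterol regulatory element-binding proteins are transcription factors made as precursors in the membrane of the endoplasmic reticulum. Srebf1 encodes SREBP-1a and SREBP-1c, which favour fatty acid synthesis, and Srebf2 encodes SREBP-2, which favours cholesterol synthesis and uptake. Scap encodes the sterol-sensing escort that carries the precursors to the Golgi for cleavage, and Insig1 and Insig2 encode the proteins that hold Scap back when sterols are plentiful. Mlxipl encodes ChREBP, a glucose-responsive factor that binds DNA together with its partner Mlx and drives glycolytic, fructolytic and lipogenic genes in liver. LXR is known to activate Srebf1 transcription in liver, mainly through the SREBP-1c start.

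Library totals ran from 23421561 to 35376342 counts. Counts of Nr1h3, the targeted gene, were higher in the libraries labelled Lxrα-/- than in wild type, at 70.7 to 95.2 against 41.6 to 59.8 FPKM in liver and 31.6 to 51.5 against 15.2 to 17.4 FPKM in kidney, with no overlap (edgeR quasi-likelihood test, adjusted p = 0.00277 and 0.00209, n = 5 per group). A count over the whole gene does not show which exons are read, so it does not check the genotype labels, and every direction below is stated between groups as labelled. Wild-type kidney 3 had 50.8% of its counts on mitochondrially encoded genes and wild-type kidney 1 had 7.21%, against 12.6% to 21.1% in the other 8 kidneys and 5.49% to 13.2% in the livers. Kidney markers summed to at most 3.51 CPM in any liver, and the hepatocyte markers Cps1 and Tat stayed under 0.1 CPM in every kidney. In liver, the summed hepatocyte markers were 88650 to 121200 CPM in the labelled Lxrα-/- group and 123500 to 168000 CPM in wild type, although 5 of these 10 markers had positive and 5 negative estimates (median log2 difference -0.024, 1 called lower). In the same livers 7 Kupffer cell and macrophage markers summed to 103 to 218 against 293.5 to 471.9 CPM. In kidney, 10 tubule and glomerulus markers summed to 32530 to 45610 against 21630 to 31380 CPM, although 6 of these 10 had positive and 4 negative estimates (median log2 difference 0.027, none called by edgeR). There 7 fibroblast and stellate cell markers summed to 61.2 to 113.5 against 175.4 to 488.3 CPM. Sums over 8 lymphocyte markers did not overlap in either tissue, at 5.90 to 10.55 against 11.86 to 17.42 CPM in liver and 3.37 to 5.30 against 7.44 to 12.5 CPM in kidney. Of the 8, 5 were called lower and 1 higher in liver, and 3 lower and 0 higher in kidney. Adipocyte marker sums overlapped between genotypes in both tissues. The part of these marker shifts in the values below was not tested, and in bulk tissue fewer cells of a type and less RNA per cell cannot be told apart.

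Promoter windows are shown because the Srebf1 promoter is a known LXR target and because Srebf2 and Insig1 had higher mean counts in the same livers. RefSeq windows of the 250 bases before a transcription start were found for all 7 members on build GRCm38.p6, 13 windows in all, and each was ended before the first annotated exon. Capitals mark matches, on either strand, to 6 motifs: the E-box CACGTG, the sterol regulatory element core TCACNCCA, the CCAAT box CCAAT, the GC box GGGCGG, the LXR element form GGTTACNNNNGGTCA and the direct repeat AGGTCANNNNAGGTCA. The GGTTAC form was written with the SREBP-1c element in mind, so its match there is a description and not a finding. No matches overlap in the windows printed.
Srebf1, downstream start, chr11:60210472-60210721, minus strand: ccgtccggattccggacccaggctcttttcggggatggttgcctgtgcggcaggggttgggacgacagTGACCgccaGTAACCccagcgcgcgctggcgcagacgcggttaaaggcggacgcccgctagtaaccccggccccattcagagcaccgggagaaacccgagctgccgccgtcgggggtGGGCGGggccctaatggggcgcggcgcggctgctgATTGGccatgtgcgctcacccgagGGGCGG
Srebf1, middle start, chr11:60220628-60220877, minus strand: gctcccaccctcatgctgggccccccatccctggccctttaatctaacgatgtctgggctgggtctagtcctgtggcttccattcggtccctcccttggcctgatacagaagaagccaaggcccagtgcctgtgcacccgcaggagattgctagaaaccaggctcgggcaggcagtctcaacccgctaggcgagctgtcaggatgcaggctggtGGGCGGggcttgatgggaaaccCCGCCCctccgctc
Srebf2, chr15:82147019-82147180, plus strand: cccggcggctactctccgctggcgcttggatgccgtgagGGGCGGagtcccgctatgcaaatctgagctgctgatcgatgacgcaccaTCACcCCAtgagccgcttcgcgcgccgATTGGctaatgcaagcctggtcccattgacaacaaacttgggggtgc
Insig1, chr5:28071162-28071362, plus strand: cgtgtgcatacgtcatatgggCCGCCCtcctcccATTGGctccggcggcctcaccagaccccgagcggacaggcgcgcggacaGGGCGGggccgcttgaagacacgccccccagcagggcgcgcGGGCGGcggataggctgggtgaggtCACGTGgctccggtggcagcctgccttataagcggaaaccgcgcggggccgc
The downstream Srebf1 window holds the GGTTAC form on the opposite strand, beginning 182 bases before the start, and this form is in 12 of 32851 RefSeq windows of 250 bases (0.0365%). It also holds a CCAAT box and GC boxes, which are common, in 33.8% and 32.7% of those windows. The middle Srebf1 window holds GC boxes alone among the 6 motifs, and the window of the third and most upstream Srebf1 start, chr11:60222582-60222831, which is not printed, holds a CCAAT box alone. The Srebf2 window holds the sterol regulatory element core 74 bases before the first annotated exon, beside a CCAAT box and a GC box, and 2.37% of windows of 162 bases hold that core. The Insig1 window holds an E-box, which 4.36% of windows of 201 bases hold, with a CCAAT box and GC boxes. E-boxes are also in the upstream Mlxipl window and the Mlx window, the core is also in the downstream Mlxipl window, and the AGGTCA repeat is in none of the members' windows. The counts are per gene, so transcripts from the separate Srebf1 starts, and hence SREBP-1a and SREBP-1c, cannot be told apart.

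The members lie on 5 chromosomes of mm10. Srebf1 spans chr11:60199089-60222581 on the minus strand and Srebf2 chr15:82147181-82205379 on the plus strand. Scap spans chr9:110333288-110384950 (plus), Insig1 chr5:28071363-28078662 (plus), Insig2 chr1:121304353-121332589 (minus), Mlxipl chr5:135089890-135138382 (plus) and Mlx chr11:101087277-101092207 (plus). Srebf1 overlaps Rai1, and Mlx overlaps Psmc3ip, on the opposite strand. Whether the counting used strand is not given in the sources used here, so reads from overlapping partners may be shared. Over the 20 libraries Rai1 had 12496 counts beside 85960 for Srebf1, and Psmc3ip 1339 beside 23593 for Mlx, and no gene overlaps Insig1.

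Levels are given per length, as FPKM (fragments per kilobase of gene model, scaled to library size) computed from the counts with library sizes scaled by TMM over the 20 libraries. In wild-type liver the mean levels in FPKM ran from Mlxipl, at 97.3 ± 23.8 (SD, n = 5), through Insig1 at 79.9 ± 22.7, Srebf1 at 78.2 ± 33.7 and Insig2 at 44.3 ± 21.5, to Scap at 20.5 ± 1.93, Mlx at 16.5 ± 1.56 and Srebf2 at 8.08 ± 1.44. Neighbours in that order overlapped between libraries except Insig2 against Scap and Mlx against Srebf2. In wild-type kidney Mlxipl, at 29.1 ± 24.3 FPKM, and Mlx, at 18.3 ± 3.22 FPKM, had the highest means and overlapped each other. Mlx stood above the other 5 members in every library, whereas the lowest Mlxipl value, 9.02 FPKM in wild-type kidney 6, lay below the highest values of Insig2, Srebf2, Scap and Insig1. Those 5 ran from 8.53 ± 1.66 FPKM for Srebf2 to 5.04 ± 1.33 FPKM for Srebf1 with every neighbour overlapping. In labelled Lxrα-/- liver the order was Insig1 at 122 ± 32.9, Mlxipl at 90.3 ± 6.58, Insig2 at 37.5 ± 6.87, Srebf1 at 34.9 ± 3.48, Mlx at 20.5 ± 3.74, Scap at 16.9 ± 2.77 and Srebf2 at 14.0 ± 4.84 FPKM. There Mlxipl did not overlap Insig2, nor Srebf1 Mlx. In labelled Lxrα-/- kidney Mlx, at 23.8 ± 2.81 FPKM, and Mlxipl, at 22.5 ± 3.75 FPKM, again led and overlapped, and Srebf1 was again last, at 5.63 ± 1.14 FPKM, without overlapping its neighbour Insig1.

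**Figure D1:**
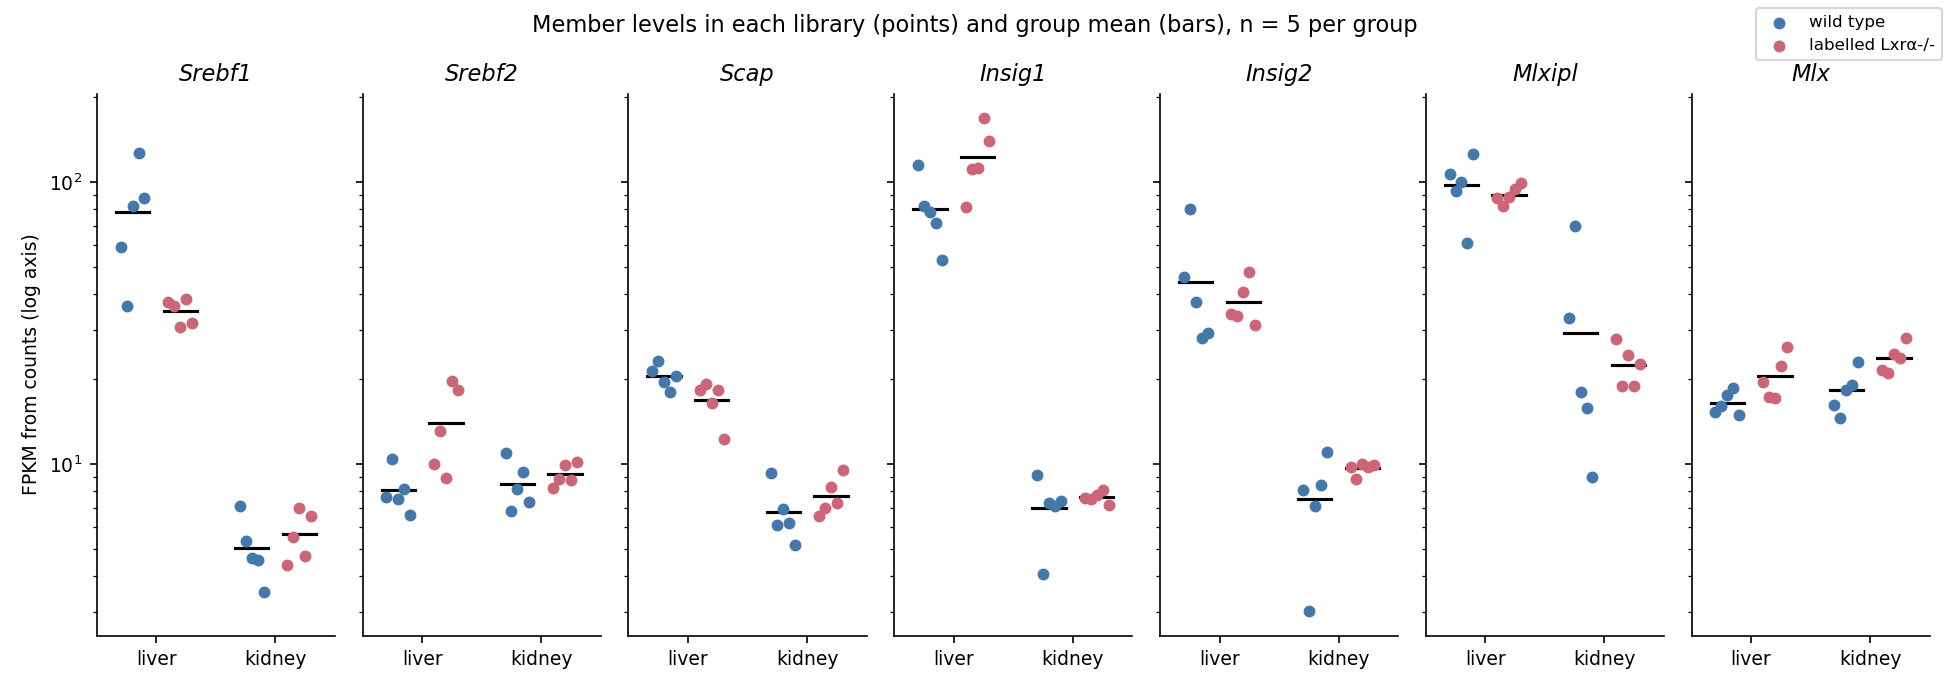
Level of each member in FPKM (log axis) in every library, by tissue and labelled genotype; points are libraries and bars group means, 5 libraries per group. Srebf1 in liver lay between 30.7 and 38.5 FPKM in the labelled Lxrα-/- group and between 36.3 and 126 FPKM in wild type, and no other member of the 7 separated the genotypes without overlap either.

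The first question was whether the regulators differed between genotypes in liver, where LXR is known to act on lipid synthesis. Srebf1 was called lower and Srebf2 higher in the labelled Lxrα-/- livers. The estimates for the fatty acid and the cholesterol arm of the SREBP family thus went in opposite directions. The Srebf1 call was kept under 9 of 11 alternative settings. The Srebf2 call lay close to the threshold and was kept under 5 of the 11. The other 5 members did not pass the test. In all, 2 of the 7 members were called at an adjusted p under 0.05 by edgeR's quasi-likelihood test, against 6.02% of the 14822 genes tested (1.94% higher and 4.08% lower), and all 7 passed the filter on low counts. None of the 7 separated the genotypes without overlap, against 6.85% of genes tested.

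Srebf1 levels in wild-type livers 1, 3, 4, 5 and 6 were 58.9, 36.3, 82.0, 126 and 87.7 FPKM. The labelled Lxrα-/- livers 1 to 5 had 37.4, 36.2, 30.7, 38.5 and 31.7 FPKM. The labelled Lxrα-/- livers were tightly grouped, and the wild-type livers were widely spread, with wild-type liver 3 inside the labelled Lxrα-/- range and the other 4 above it. The fitted log2 difference was -1.17 (SE 0.254, 95% interval -1.72 to -0.62, edgeR adjusted p = 0.0162), a fall of 2.25-fold. The call was held in each of the 10 fits that left out 1 library, with adjusted p between 0.00279 and 0.0477. Without labelled Lxrα-/- livers 4 and 5, a choice made after seeing the data, the log2 difference was -1.16 with an edgeR adjusted p of 0.0728.

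Srebf2 levels in the wild-type livers, in the same order, were 7.66, 10.5, 7.51, 8.15 and 6.60 FPKM. The labelled Lxrα-/- livers had 9.995, 13.1, 8.94, 19.7 and 18.3 FPKM. Livers 4 and 5 of the labelled Lxrα-/- group were the highest, and livers 1 and 3 of that group lay below wild-type liver 3. The log2 difference was 0.78 (SE 0.210, 95% interval 0.32 to 1.23, edgeR adjusted p = 0.0466), a rise of 1.72-fold. This call rested on several single libraries: it was kept in 3 of 10 fits that left out 1 library (labelled Lxrα-/- liver 1, labelled Lxrα-/- liver 3 or wild-type liver 3), and the adjusted p ranged from 0.0185 to 0.110. Without labelled Lxrα-/- livers 4 and 5 together the log2 difference was 0.41 with an edgeR adjusted p of 0.221.

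Insig1, a known SREBP target whose product restrains SREBP processing, had 115, 82.3, 78.0, 71.3 and 52.9 FPKM in the wild-type livers. It had 81.4, 111, 112, 168 and 140 FPKM in the labelled Lxrα-/- livers. Labelled Lxrα-/- livers 4 and 5, the highest for Srebf2, were also the highest for Insig1, and wild-type livers 1 and 3 lay above labelled Lxrα-/- liver 1. The log2 difference was 0.60 (SE 0.213, 95% interval 0.14 to 1.06) and did not pass (edgeR adjusted p = 0.128). Leaving out wild-type liver 1 brought it to 0.77 with an adjusted p of 0.0479.

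Insig2, the second INSIG gene, ranged from 28.1 to 80.3 FPKM in wild-type liver and from 31.2 to 48.0 FPKM in labelled Lxrα-/- liver. Its highest liver was wild-type liver 3, and all labelled Lxrα-/- values lay inside the wild-type range. The log2 difference was -0.25 (95% interval -0.82 to 0.31, edgeR adjusted p = 0.639), and it turned to 0.10 when wild-type liver 3 was left out. For Scap, the escort, the levels were 18.0 to 23.2 FPKM in wild type and 12.3 to 19.3 FPKM in the labelled Lxrα-/- group, with labelled Lxrα-/- liver 5 the lowest. Its log2 difference was -0.29 (95% interval -0.58 to 0.00, edgeR adjusted p = 0.244).

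Mlxipl levels in the wild-type livers 1, 3, 4, 5 and 6 were 107, 92.7, 100.1, 61.0 and 126 FPKM. The labelled Lxrα-/- livers had 87.6, 82.1, 88.2, 94.4 and 99.1 FPKM. The lowest and the highest liver were both wild type, and the labelled Lxrα-/- values lay between them. The log2 difference was -0.12 (95% interval -0.49 to 0.25, edgeR adjusted p = 0.744), and it was 0.01 without wild-type liver 6. Mlx, the DNA-binding partner, ranged from 15.0 to 18.6 FPKM in wild type and from 17.2 to 26.1 FPKM in the labelled Lxrα-/- group, where livers 5, 4 and 1 lay above every wild-type liver. Its log2 difference was 0.30 (95% interval 0.04 to 0.57, edgeR adjusted p = 0.187).

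**Figure D2:**
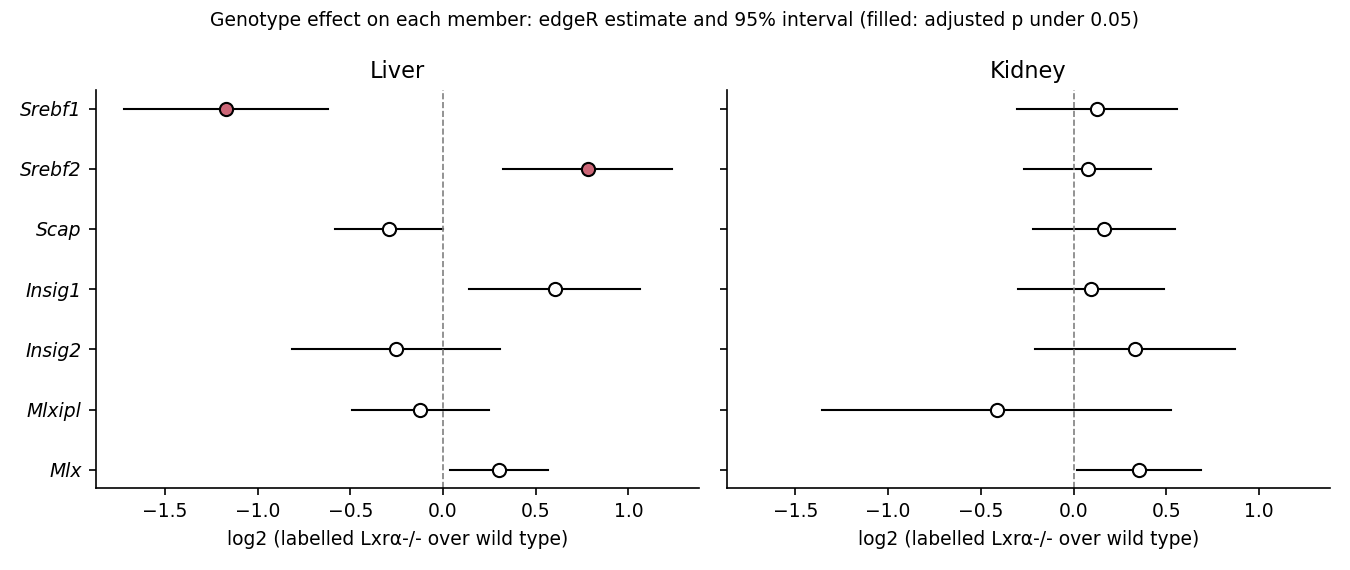
Log2 difference of labelled Lxrα-/- over wild type for each member in liver (left) and kidney (right); points are edgeR estimates, lines 95% intervals, filled points have an adjusted p under 0.05. Srebf1 at -1.17 and Srebf2 at 0.78 in liver are the filled points, and no kidney point is filled.

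The second comparison asked the same of kidney. None of the 7 members was called, against 2.26% of the 16500 genes tested (0.394% higher and 1.87% lower), and none separated the genotypes without overlap, against 6.94%. Mlx was the 1 member with an unadjusted edgeR p under 0.05, and DESeq2 called 0 of the 7 members as well. Srebf1 had 7.12, 5.33, 4.67, 4.58 and 3.51 FPKM in wild-type kidneys 1, 3, 4, 5 and 6, and 4.38, 5.52, 7.02, 4.71 and 6.54 FPKM in labelled Lxrα-/- kidneys 1 to 5. The highest and the lowest kidney for Srebf1 were both wild type. Its log2 difference was 0.13 (95% interval -0.31 to 0.56, edgeR adjusted p = 0.722). Srebf2 ranged from 6.81 to 10.9 FPKM in wild type and from 8.23 to 10.2 FPKM in the labelled Lxrα-/- group, a log2 difference of 0.08 (95% interval -0.27 to 0.42, edgeR adjusted p = 0.792).

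Scap, Insig1 and Insig2 also kept overlapping ranges in kidney. Scap had 5.16 to 9.32 FPKM in wild type and 6.56 to 9.52 FPKM in the labelled Lxrα-/- group (log2 difference 0.16, 95% interval -0.22 to 0.55, edgeR adjusted p = 0.597). Insig1 had 9.18, 4.07, 7.25, 7.11 and 7.42 FPKM in the wild-type kidneys and 7.17 to 8.12 FPKM in the labelled Lxrα-/- group. Insig2 had 8.07, 3.02, 7.12, 8.46 and 11.02 FPKM in the wild-type kidneys and 8.87 to 9.99 FPKM in the labelled Lxrα-/- group. Wild-type kidney 3, the library with 50.8% mitochondrial counts, was the lowest kidney for both INSIG genes, and the labelled Lxrα-/- kidneys were close together. The log2 differences were 0.10 for Insig1 (95% interval -0.30 to 0.49, edgeR adjusted p = 0.771), which was -0.01 without wild-type kidney 3, and 0.33 for Insig2 (95% interval -0.21 to 0.87, edgeR adjusted p = 0.449).

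Mlxipl was the most scattered member in kidney, with 33.0, 69.7, 18.0, 15.8 and 9.02 FPKM in the wild-type kidneys. The labelled Lxrα-/- kidneys had 27.7, 19.0, 24.4, 18.9 and 22.6 FPKM. Wild-type kidneys 3 and 1, which stood apart in their mitochondrial share, held the highest Mlxipl values, and the other 3 wild-type kidneys lay below every labelled Lxrα-/- kidney. The log2 difference was -0.42 (95% interval -1.36 to 0.53, edgeR adjusted p = 0.585) with all libraries, 0.27 without wild-type kidney 3 and 0.63 (adjusted p = 0.120) without wild-type kidneys 1 and 3, so its direction was set by those libraries. Mlx ranged from 14.6 to 23.1 FPKM in wild type and from 21.1 to 28.1 FPKM in the labelled Lxrα-/- group. Wild-type kidney 6 alone reached into the labelled Lxrα-/- range, and the log2 difference was 0.35 (95% interval 0.02 to 0.69, edgeR adjusted p = 0.232).

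Whether the genotype difference itself depended on the tissue was tested in a fit of all 20 libraries, as the kidney difference minus the liver difference. None of the 7 members was called, against 1.51% of the 17606 genes tested by edgeR (0.937% higher and 0.568% lower), with 2 members (Srebf1 and Srebf2) at an unadjusted p under 0.05. Srebf1 was nearest, with a difference of differences of 1.32 (SE 0.349, 95% interval 0.60 to 2.05, edgeR adjusted p = 0.0592). This value lay at the edge of the threshold: it was called under DESeq2 (adjusted p = 0.0106) and limma voom (adjusted p = 0.0191), and in edgeR without wild-type liver 3 (adjusted p = 0.0112) or without wild-type kidney 1 (adjusted p = 0.0333). Over the 20 fits that left out 1 library its adjusted p ran from 0.0112 to 0.123. For Srebf2 the value was -0.69 (95% interval -1.27 to -0.11, edgeR adjusted p = 0.269). The other members ran from -0.49 for Insig1 to 0.60 for Insig2, with edgeR adjusted p from 0.370 to 0.909.

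Between the wild-type tissues 5 of the 7 regulators were lower in kidney than in liver, and none higher, against 53.8% of the 16645 genes tested called in all, 24.2% lower and 29.6% higher. Srebf1 was 15.4-fold lower in kidney (log2 difference -3.95, SE 0.340, edgeR adjusted p = 3.05e-07) and Insig1 11.4-fold lower (log2 -3.50, SE 0.269, edgeR adjusted p = 9.41e-08). Insig2 was 5.85-fold lower (log2 -2.55, SE 0.364, edgeR adjusted p = 4.03e-05) and Scap 3.03-fold lower (log2 -1.60, SE 0.186, edgeR adjusted p = 5.91e-06). These 4 did not overlap between tissues, against 43.9% of genes tested. Mlxipl was 3.32-fold lower in kidney (log2 -1.73, SE 0.464, edgeR adjusted p = 0.0061) with overlap, since wild-type kidney 3 at 69.7 FPKM exceeded wild-type liver 5 at 61.0 FPKM. Srebf2 and Mlx did not pass, with log2 differences of 0.09 (95% interval -0.30 to 0.48, edgeR adjusted p = 0.715) and 0.15 (95% interval -0.19 to 0.49, edgeR adjusted p = 0.441). Those near-equal values depend on the TMM scaling: with library size alone the median of all genes moved by 0.643 toward kidney, the log2 values became 0.76 for Srebf2 and 0.80 for Mlx, both called by edgeR, and 79.8% in place of 55.0% of all called genes were higher in kidney. The 5 members lower in kidney were lower and called under each alternative tried.

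Ratios of members within a library do not move with the library scaling and were compared by an exact two-sided permutation test over all arrangements of the 10 libraries of a tissue, with Benjamini-Hochberg adjustment over 6 tests and a smallest possible raw p of 0.00794. In liver the log2 ratio of Srebf1 to Srebf2 counts was 2.59, 1.45, 3.10, 3.60 and 3.38 in the wild-type livers and 1.55, 1.12, 1.43, 0.62 and 0.44 in the labelled Lxrα-/- livers. The groups overlapped through wild-type liver 3 alone, which lay below labelled Lxrα-/- liver 1. The mean fell from 2.82 ± 0.858 to 1.03 ± 0.490 (SD, n = 5 each), a log2 difference of -1.79 with an exact permutation p of 0.0159 and an adjusted p of 0.0714. The log2 ratio of Insig1 to Insig2 counts in liver was 1.52 ± 0.345 in the labelled Lxrα-/- group and 0.76 ± 0.534 in wild type (n = 5 each), a difference of 0.76 with an exact permutation p of 0.0238 and an adjusted p of 0.0714. Neither passed after adjustment. For Mlxipl over Mlx in liver the difference was -0.37 (exact permutation p = 0.183, adjusted p = 0.274).

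In kidney the log2 ratio of Srebf1 to Srebf2 counts was below 0 in all 10 libraries, at -1.08 ± 0.177 in the labelled Lxrα-/- group and -1.13 ± 0.299 in wild type. The difference was 0.05 (exact permutation p = 0.754, adjusted p = 0.754, n = 5 each). Insig1 over Insig2 differed by -0.30 in kidney (exact permutation p = 0.127, adjusted p = 0.254) and Mlxipl over Mlx by -0.42 (exact permutation p = 0.548, adjusted p = 0.657). The wild-type kidneys ranged from 0.12 to 3.72 in the log2 ratio of Mlxipl to Mlx, and the labelled Lxrα-/- kidneys, from 1.15 to 1.83, lay within that range. Which member of the SREBP pair had more counts therefore differed by tissue: Srebf1 counts exceeded Srebf2 counts in all 10 livers and were below them in all 10 kidneys.

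**Figure D3:**
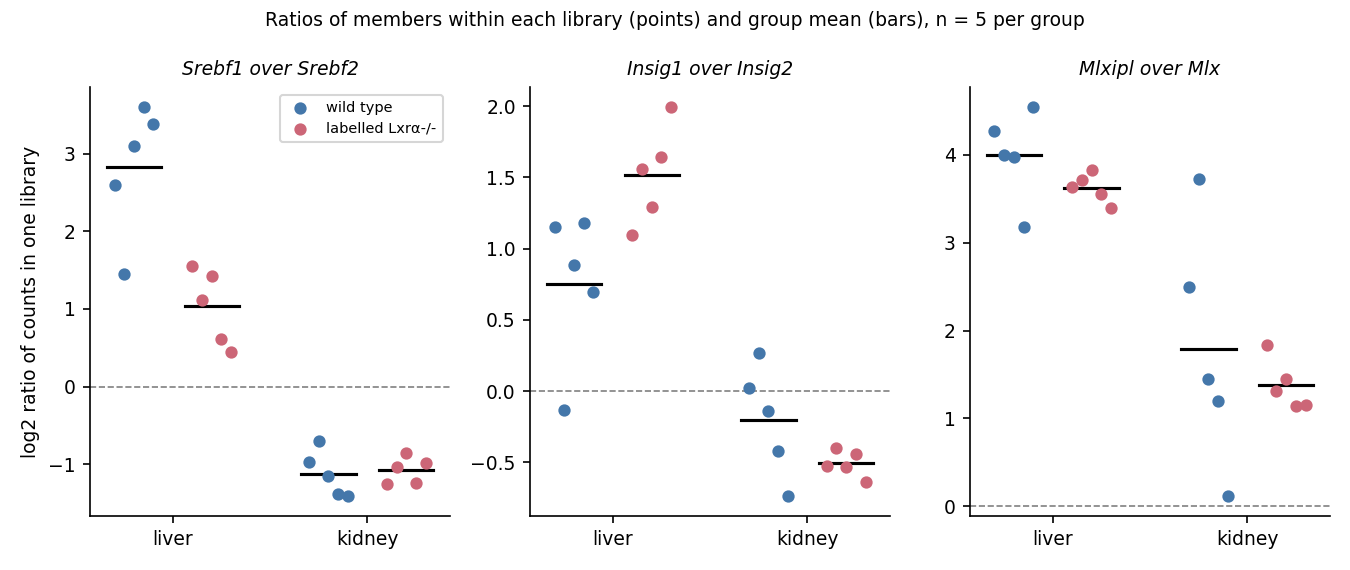
Log2 ratio of the counts of paired members within each library, by tissue and labelled genotype, for Srebf1 over Srebf2, Insig1 over Insig2 and Mlxipl over Mlx; points are libraries, bars means of 5, and the dashed line is equality of counts. In liver the Srebf1 over Srebf2 means were 2.82 in wild type and 1.03 in the labelled Lxrα-/- group, and in kidney -1.13 and -1.08.

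The genes on which these regulators act were read from lists of known targets. Of 18 SREBP-1 lipogenic targets tested in liver, 12 fell and none rose, with a median log2 difference of -1.35 against 0.00 over all genes tested. Of all genes tested in liver, edgeR called 4.08% lower and 1.94% higher. Scd1, the stearoyl-CoA desaturase, fell from 6615 ± 2146 to 240 ± 114 CPM (SD, n = 5 each), a log2 difference of -4.79 (SE 0.384, edgeR adjusted p = 1.92e-05). Elovl5, a fatty acid elongase, fell by 2.18 on the log2 scale (edgeR adjusted p = 1.48e-04) and Acaca, the acetyl-CoA carboxylase that makes malonyl-CoA, fell by 1.39 (edgeR adjusted p = 1.70e-04). Several of these targets, Scd1 among them, are also known direct LXR targets. Summed over the list, the level was 2200 to 2937 CPM in the labelled Lxrα-/- livers and 8203 to 17100 CPM in wild type, without overlap. This sum weighs the most abundant genes, and Scd1 alone had a wild-type mean of 6615 CPM. Wild-type liver 3, the lowest wild-type liver for Srebf1, had the highest sum, so the wild-type libraries were not ordered alike by Srebf1 and by this sum. Without labelled Lxrα-/- livers 4 and 5, 10 of the 18 were called lower.

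Of 23 SREBP-2 cholesterol targets tested in liver, 9 rose and none fell, against 1.94% of all genes tested called higher. The median log2 difference was 0.65. Msmo1, a sterol-C4-methyl oxidase, rose from 148 ± 39.3 to 449 ± 93.3 CPM (log2 1.59, SE 0.206, edgeR adjusted p = 7.45e-04). Hsd17b7, which acts in the same pathway, rose by 1.08 (edgeR adjusted p = 0.00191) and Sqle, squalene epoxidase, by 1.36 (edgeR adjusted p = 0.00975). The sum over the list was 6823 and 6703 CPM in labelled Lxrα-/- livers 4 and 5, 4108 to 5287 CPM in the other 3 of that group and 2657 to 4537 CPM in wild type. The livers with the most Srebf2 were thus those with the highest sum, and wild-type liver 3 was the highest wild-type liver for both. The count of 9 fell to 5 when labelled Lxrα-/- liver 4 or 5, or wild-type liver 4 or 5, was left out singly, and to 3, with a list median of 0.22, without labelled Lxrα-/- livers 4 and 5, where Sqle was among those lost (edgeR adjusted p = 0.0541).

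Of 13 ChREBP targets in liver, 4 fell and none rose, against 4.08% of all genes tested called lower. The median log2 difference was -0.52, while Mlxipl itself did not pass. Pklr, liver pyruvate kinase, went from 460.5 ± 153.5 to 111 ± 53.3 CPM (log2 -2.06, SE 0.343, edgeR adjusted p = 0.00345). Tkfc and Khk, which act on fructose, had log2 differences of -0.93 and -0.66 (edgeR adjusted p = 0.00638 and 0.0133). The fourth, named after its values were seen, was Rgs16, a regulator of G-protein signalling, which fell by 3.62 (edgeR adjusted p = 0.0296). Khk was called in each of the 10 fits that left out 1 library and under 8 of 11 alternative settings, and Tkfc under all 11. The settings that lost the Khk call included a fit of all 20 libraries (edgeR adjusted p = 0.109). They also included the fit without labelled Lxrα-/- livers 4 and 5 (edgeR adjusted p = 0.0571), where the count was again 4 but did not include Khk. Among 7 genes of the Mondo family and its glucose-responsive arm, Arrdc4, a known ChREBP and MondoA target, fell in liver (log2 -0.91, SE 0.203, edgeR adjusted p = 0.0191), and Klf10 and Txnip had log2 differences of -0.91 and -0.81 without passing (edgeR adjusted p = 0.109 and 0.142). The Arrdc4 call in liver was lost without wild-type liver 6 and without labelled Lxrα-/- livers 4 and 5. Every one of these 7 genes had a negative estimate in both tissues. Some were near 0 or the median of all genes: Mlxip in liver was at -0.01 (SE 0.124). Mxd4 in kidney was at -0.074, where the median of all genes tested was -0.074.

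The list of 15 genes for SREBP cleavage and turnover, called processing genes below, is wider than its name and includes Usf1, Usf2, Tfe3 and Lpin1. Rnf145 alone was called in liver, 1 of 15 against 6.02% of all genes tested. This ubiquitin ligase, itself a known LXR target, fell from 46.1 ± 11.1 to 17.8 ± 3.62 CPM (log2 -1.38, SE 0.191, edgeR adjusted p = 0.00104). Lpin1 and Vcp had log2 differences of -0.92 and 0.28 and did not pass (edgeR adjusted p = 0.204 and 0.210). The median over the 15 was -0.06.

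In kidney the same lists gave a single call, where edgeR called 2.26% of all genes tested. At that share lists of this size hold few or no calls, so an absence of calls is not a result about them. Arrdc4 fell by 0.72 on the log2 scale (SE 0.164, edgeR adjusted p = 0.0383), from 15.8 ± 2.27 to 9.78 ± 1.30 CPM, and this was lost when labelled Lxrα-/- kidney 1, 3, 4 or 5 or wild-type kidney 4 or 5 was left out (adjusted p 0.0273 to 0.124 over the 10 such fits). None of 17 SREBP-1 targets, 23 SREBP-2 targets, 12 ChREBP targets or 15 processing genes was called by edgeR, and their medians were 0.20, 0.22, 0.16 and 0.14 against -0.07 over all genes tested. At an unadjusted edgeR p under 0.05 the numbers were 4, 2, 3 and 3. DESeq2 called 1 SREBP-1 target and 2 processing genes higher and 1 SREBP-1 target lower. Over the 11 alternative settings, 0 to 2 genes of each of these lists were called higher and at most 1 lower. Among these targets and processing genes, the nearest to the threshold were Acaca (log2 0.60, edgeR adjusted p = 0.0650) and Rnf145 (log2 0.61, edgeR adjusted p = 0.0989). Acaca was called without wild-type kidney 3 and under 4 of the 11 alternatives, and Rnf145 under 3. In the test of the difference between tissues, 10 of 18 SREBP-1 targets were called, all with the larger value in kidney, against 0.937% of genes tested called in that direction. For ChREBP targets the number was 3 of 13, which ran from 0 to 4 as single libraries were left out, and for SREBP-2 targets edgeR called 0 of 23 in either direction, with 8 at an unadjusted p under 0.05 and 2 called with the smaller value in kidney by DESeq2.

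**Figure D4:**
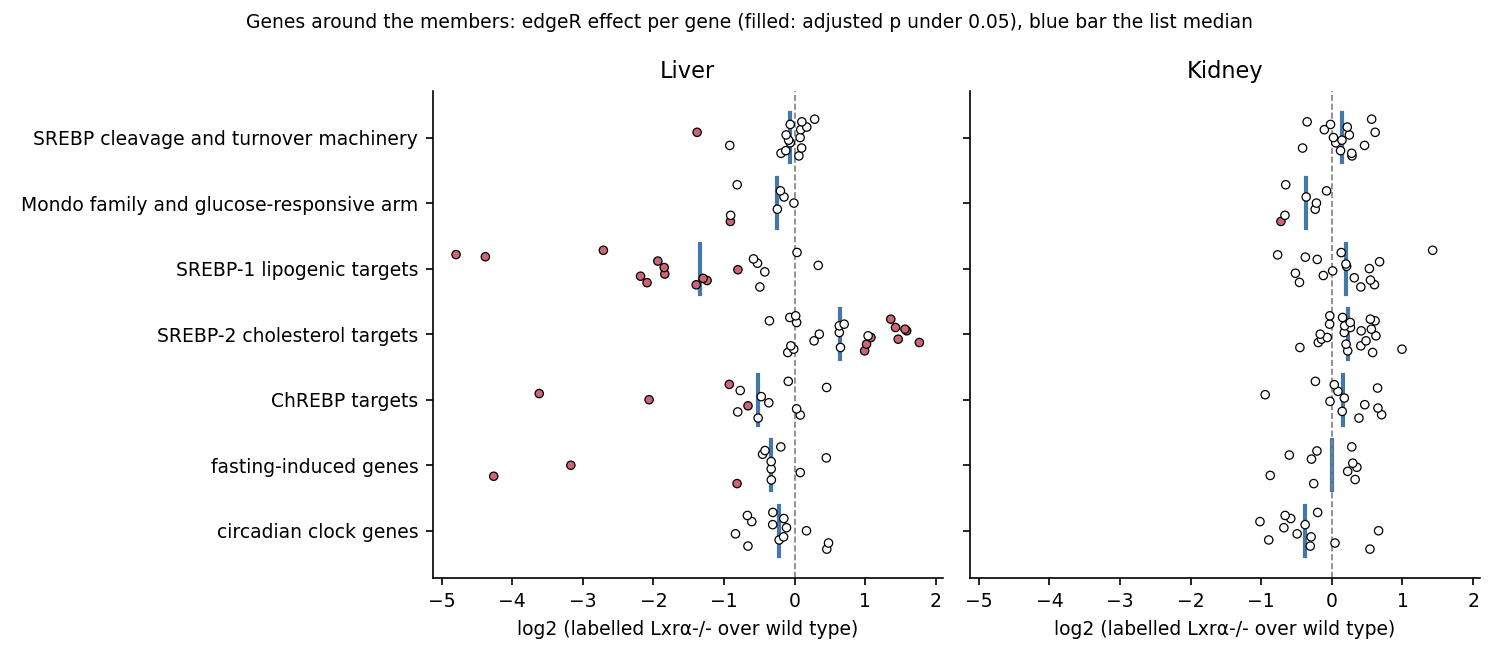
Log2 difference of labelled Lxrα-/- over wild type for each gene of 7 lists in liver and kidney, on a shared axis; circles are genes, filled where the edgeR adjusted p is under 0.05, and blue bars are list medians. In liver the SREBP-1 list centres at -1.35 with 12 filled circles and the SREBP-2 list at 0.65 with 9, and in kidney the Arrdc4 circle alone is filled.

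Because the feeding state and the sampling hour are not given, genes that follow them were read beside the regulators. Of 11 fasting-induced genes in liver, 3 passed: Cyp4a14 fell by 4.26, Igfbp1 fell by 3.17 and Angptl4 fell by 0.82 on the log2 scale (edgeR adjusted p = 0.00237, 0.00288 and 0.00296). Of all genes tested in liver, 4.08% were called lower. The Angptl4 call was lost in a fit of all 20 libraries (edgeR adjusted p = 0.0847). None of 10 was called in kidney by edgeR or DESeq2, with 0 at an unadjusted edgeR p under 0.05, and the median was -0.33 in liver and 0.01 in kidney. Over the 11 alternatives 0 to 1 of them was called higher in kidney. Of 13 circadian clock genes none was called in either tissue by edgeR with all libraries of the tissue or by DESeq2. Over all genes tested, edgeR called 6.02% in liver and 2.26% in kidney. At those shares lists of this size hold few calls, so an absence of calls is not a result about them. At an unadjusted edgeR p under 0.05 the clock genes numbered 1 in liver and 3 in kidney, and their medians were -0.22 in liver and -0.38 in kidney. The kidney count depended on the setting: the 11 alternatives called 0 to 3 lower and 0 to 2 higher. Leaving out 1 library gave 0 to 2 lower in kidney and 0 to 1 higher in liver. Dbp, a clock output gene, had a log2 difference of -0.84 in liver (edgeR adjusted p = 0.312), and Per1 -1.02 in kidney (edgeR adjusted p = 0.159). The part of feeding or of the sampling hour in the differences of the regulators was not tested.

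The genes whose profiles were most like each member's were taken as those with the smallest root mean square difference of centred log2 CPM over the 20 libraries, among 12885 protein-coding genes. These profiles are dominated by the tissue difference for the members that have a large one, and they are a description without a test. For Srebf1 the nearest were 1810055G02Rik at 0.42, Npc1 at 0.44 and Acaca at 0.45, against a standard deviation of 1.72 for Srebf1 itself. Insig1 was nearest to Psen2 at 0.34, Gramd1c at 0.35 and Agpat2 at 0.37, and Insig2 to Lonp2 at 0.30, Nipsnap3b at 0.33 and Hebp1 at 0.34. Scap was nearest to Pex14 at 0.17, Hdac11 at 0.18 and Pard3 at 0.19. Mlxipl had Vwce, Nsmf and Ell at 0.29 each, and Mlx had Tmem199 and Sap30bp at 0.11 each and Qars at 0.12. Srebf2 was near to Wdr25 and Trp53inp2, each at 0.22, against its own standard deviation of 0.41.

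Within the 10 livers alone, where the tissue plays no part, the nearest genes are named after their values were seen. Srebf2 was then nearest to Dhcr7 at 0.13, Mmab at 0.15 and Lss at 0.17, with a standard deviation of 0.51 for Srebf2, and Dhcr7 and Lss encode enzymes of cholesterol synthesis. Insig1 was 0.31 from Srebf2 and 1.06 from Srebf1 over the livers, and Srebf1 and Srebf2 were 1.09 apart. Mlxipl and Mlx were 0.39 apart, more than their own standard deviations of 0.26 and 0.24. Insig1 and Insig2 were 0.55 apart, against 0.47 and 0.43. Neither pair was close: Mlx ranked 6549 of 12885 genes from Mlxipl, and Insig2 6582 from Insig1. All livers share the genotype contrast and a common scaling, so a short distance within the 10 livers in part restates the genotype differences given above.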

How the data were processed

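RNA of 20 libraries was measured, from kidney and liver of 5 wild-type and 5 labelled Lxrα-/- mice. The deposited values were whole-number counts per gene and, in a separate table, log2 FPKM of 15454 genes, both made by the authors. HISAT2 2.0.5, StringTie, DESeq2 1.16.1 and build mm10 are named per the submitters' processing notes. The counting tool, the annotation release and the strand setting are not given in the sources used here.

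Samples were grouped by the labels' titles. The counts were tested in R 4.3.3 with edgeR 4.0.16 (filterByExpr at a minimum count of 10, TMM scaling, quasi-likelihood F test, Benjamini-Hochberg adjustment over all genes tested, called at an adjusted p under 0.05), each tissue alone for genotype. FPKM were computed from the counts and the deposited gene lengths. Ratios used a prior count of 0.5. Steps were tested on simulated data. Alternatives used DESeq2 1.42.0, limma 3.58.1 (voom, and trend on the deposited log2 FPKM), other scalings and filters, single libraries left out, and a block.

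The 7 members and all lists were chosen with earlier results of these data known. Genes named beside the members were Nr1h3, up to 3 genes per list with the smallest p in each tissue, and for each member the 3 nearest profiles, of which 1 is not reported here; others are named as such. Library totals of 23421561 to 35376342 counts gave each member at least 253 counts in every library. The design text gives 5 mice per genotype, and no label states the animal. Kidney and liver of a title number were read as the same mouse on that basis (correlation of deviations from group means -0.137 to 0.278). Numbers shared between genotypes do not mark a shared animal. Promoters are RefSeq windows on GRCm38.p6.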

Additional observations from a re-analysis of the deposited data

Results flagged for a closer look

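Insig2 in labelled Lxrα-/- kidney 2 stood apart from the other 4 libraries of its group, at 8.87 FPKM against 9.73 to 9.99 FPKM. Its gap to the nearest library exceeded the 95% limit for 5 values. This was 1 of 40 groups examined, and chance alone sets apart about 1 in 20 groups. The group's standard deviation, 0.457 FPKM, is among the smallest of the members' groups, and the gap is smaller than the spread of wild-type kidney Insig2 (SD 2.91 FPKM, n = 5).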

How the results depend on the processing

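In liver, edgeR called 893 genes; DESeq2 called 1408, and leaving out 1 library gave 575 (wild-type liver 6) to 913. The number of members called was 2. It was 1, with Srebf2 the member lost, without TMM scaling, under voom, with a filter at 1 CPM and on log2 FPKM. It was 0 without labelled Lxrα-/- livers 4 and 5, and 1 to 2 with 1 library left out. In kidney, 373 genes became 1151 under DESeq2, 2151 under voom, 948 in a fit of all 20 libraries, 237 on log2 FPKM, 590 without wild-type kidneys 1 and 3, and 99 (without labelled Lxrα-/- kidney 4) to 921 (without wild-type kidney 6); no member was called in any. For the tissue difference of the genotype effects, 265 genes became 176 without TMM, 611 under DESeq2, 681 under voom and 165 to 487 with 1 library left out, and members called went from 0 to 1, always Srebf1, under DESeq2, voom, no filter, without mitochondrial genes and without labelled Lxrα-/- livers 4 and 5 and wild-type kidneys 1 and 3 (0 to 1 with 1 library left out). Settings that leave out named libraries or mitochondrial genes were chosen after seeing the data. Without TMM, liver calls split 216 higher to 766 lower, against 288 to 605. The causes were not tested.

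Some values changed sign. In liver they were Mlxipl (-0.25 to 0.014 with 1 library left out) and Insig2 (-0.38 to 0.10). In kidney they were Srebf2 (-0.041) and Insig1 (-0.034) without TMM, Insig1 (-0.013 to 0.22 with 1 library left out), Mlxipl (0.33 under voom, -0.64 to 0.27 with 1 library left out, 0.63 without wild-type kidneys 1 and 3) and Pdk4 (0.021 under voom). For Srebf2 between tissues the range with 1 library left out was -0.019 to 0.19. The difference of effects for Mlxipl was 0.53 under voom, 0.84 without 4 libraries and -0.49 to 0.36 with 1 left out. With 1 library left out, the log2 ratios ran from -2.14 to -1.60 (Srebf1 over Srebf2), 0.54 to 0.87 (Insig1 over Insig2) and -0.57 to -0.23 (Mlxipl over Mlx) in liver, where 4 such fits passed at an adjusted p of 0.0476, and from -0.020 to 0.16, -0.44 to -0.19 and -0.84 to 0.066 in kidney, where 1 fit passed (Insig1 over Insig2 without wild-type kidney 6, -0.44, adjusted p 0.0476); without wild-type kidneys 1 and 3 the last was 0.46.

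Title numbers shared by the genotypes gave correlations of deviations of -0.0426 to 0.168. Kidney and liver read as the same mouse gave -0.137 to 0.278, a range that covers the first. The correlations therefore cannot tell whether a shared title number pairs the samples. With that number as a replicate block, 307 genes and 0 members were called in liver (Srebf1 -0.997, Srebf2 0.68, Mlxipl 0.056; SREBP-2 targets 3) and 902 genes and 0 members in kidney, and the Srebf1 over Srebf2 ratio in kidney was -0.031 over 4 numbers. With the mouse as a replicate block, 8600 genes and 5 members were called between tissues, and 181 genes and 0 members for the difference of effects (Srebf1 1.23, Mlxipl 0.043), where 6 SREBP-1 targets and 1 ChREBP target were called with the larger value in kidney.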
